A study of Mus musculus with 27 samples.

Results

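The Snrp, Lsm and Sf3 genes encode the core proteins of the splicing machinery and their LSm relatives. Members were all symbols of the expression table that begin with Snrp, with Lsm and a digit, or with Sf3a or Sf3b and a digit, leaving out Snrpn, which gave 31 of 23382 symbols. By role they fall into 7 genes of the Sm ring, 4 genes of U1 and U2 particle proteins, 7 genes of the LSm1 to LSm8 rings, 5 other LSm genes, 3 genes of SF3a and 5 genes of SF3b. The cells were B220-positive spleen cells of a mouse lymphoma model, B220 being a surface marker of B cells. In the SHMT2 group, VavP-Bcl2 haematopoietic stem cells of fetal liver had received the retroviral vector MSCV-SHMT2, which expresses a mitochondrial serine hydroxymethyltransferase. In the vector group the same kind of cells had received the empty vector. Both groups carried the VavP-Bcl2 transgene, whose Vav promoter is active throughout blood cells, and both grew in irradiated wild-type recipients. The labels name no marker that separates donor cells from recipient cells. RNA-seq covered 3 SHMT2 and 3 vector libraries, H3K4me3 ChIP-seq 3 and 2, and H3K4me1 ChIP-seq 2 and 2. DNA methylation was read in 3 and 3 libraries by ERRBS, a bisulfite method whose reads gather at CpG-rich DNA.

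Introns are removed by the spliceosome, which is built from small nuclear ribonucleoproteins, each an RNA bound by proteins. The Sm proteins form a ring around the U1, U2, U4 and U5 RNAs, and further proteins mark a particle as U1 or U2. U1 recognises the start of an intron, and U2, with its SF3a and SF3b complexes, the branch point near its end. LSm proteins form a similar ring on the U6 RNA in the nucleus and, with Lsm1, a ring in the cytoplasm that leads messenger RNA to decapping. Lsm10 and Lsm11 belong to the U7 particle, which trims histone messenger RNA. These are housekeeping genes, and proliferating lymphocytes express them widely.

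Expression values were TPM, a per-library relative abundance of transcripts, as deposited. Levels in this table cannot be set against each other between genes: Gapdh, among the most abundant messengers of most cells, was listed at 1.80 to 4.70 TPM, and the ubiquitin ligase Huwe1 at 9857 to 12298 TPM. Values are therefore compared across libraries within a gene, and no difference in TPM between members is read as a difference in abundance. The mean of at least 1 TPM used below to choose genes is a line on these same levels. It may leave out genes that are well expressed. Sums over marker lists are weighted by these levels, so the mean log2(TPM + 1) of a list is given beside them. Depth cannot be read back from TPM, and that of the RNA-seq libraries is unknown. Many small Sm and LSm genes have processed pseudogenes in mammals, and the sources used here do not say how reads shared with such copies were counted, which leaves these values uncertain. Shmt2 itself was listed at 244, 345 and 259 TPM in the SHMT2 libraries and at 174, 223 and 157 TPM in the vector libraries, without overlap. The ERRBS tables held 1300043 to 1394257 autosomal CpG cytosines per library, with 63.5 to 72.3 calls at each on average. The H3K4me3 lists held 34458 to 38249 peaks in SHMT2 libraries and 33313 to 33806 in vector libraries, and the H3K4me1 lists 48993 to 52056 in SHMT2 and 33119 to 37274 in vector libraries.

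The promoters of Snrpd2, Snrpe, Snrpb2 and Sf3b2 are printed here. In the results that follow, each of these starts had H3K4me3 and little methylation within 1 kb. Neither was read over the printed bases alone. Snrpd2 and Sf3b2 had the highest and the lowest log2 fold change among the 12 members with the smallest p-values. Snrpe and Snrpb2 were added after their sequences were seen, as members of those 12 with the ETS-type motif at the start. Each sequence is RefSeq's for GRCm38.p6, the build also called mm10, with 250 bases before the annotated start and 50 from it, read on the gene's strand. Capitals mark CCGGAAG or CCAAT on either strand (read on the other strand, CTTCCGG or ATTGG). Snrpd2 lies at chr7:19149588-19149887 on the plus strand, Snrpe at chr1:133610231-133610530 on the minus strand, Snrpb2 at chr2:143062819-143063118 on the plus strand and Sf3b2 at chr19:5295408-5295707 on the minus strand.
Snrpd2: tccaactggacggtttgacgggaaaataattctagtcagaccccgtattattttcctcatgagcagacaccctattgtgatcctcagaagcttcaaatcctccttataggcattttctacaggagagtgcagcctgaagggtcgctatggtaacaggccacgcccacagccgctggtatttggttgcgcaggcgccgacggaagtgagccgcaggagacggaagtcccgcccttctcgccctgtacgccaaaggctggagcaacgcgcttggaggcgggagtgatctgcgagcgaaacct
Snrpe: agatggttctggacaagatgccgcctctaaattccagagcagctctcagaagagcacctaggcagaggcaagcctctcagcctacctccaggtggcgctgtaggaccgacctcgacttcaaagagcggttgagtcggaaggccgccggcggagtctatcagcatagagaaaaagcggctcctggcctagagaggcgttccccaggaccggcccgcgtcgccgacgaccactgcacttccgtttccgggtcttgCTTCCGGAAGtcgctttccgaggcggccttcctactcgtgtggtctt
Snrpb2: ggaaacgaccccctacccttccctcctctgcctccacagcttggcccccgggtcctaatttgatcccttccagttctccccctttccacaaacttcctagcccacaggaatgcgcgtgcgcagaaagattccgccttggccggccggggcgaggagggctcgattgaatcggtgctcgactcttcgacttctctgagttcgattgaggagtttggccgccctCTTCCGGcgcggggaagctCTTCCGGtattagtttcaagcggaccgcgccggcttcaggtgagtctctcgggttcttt
Sf3b2: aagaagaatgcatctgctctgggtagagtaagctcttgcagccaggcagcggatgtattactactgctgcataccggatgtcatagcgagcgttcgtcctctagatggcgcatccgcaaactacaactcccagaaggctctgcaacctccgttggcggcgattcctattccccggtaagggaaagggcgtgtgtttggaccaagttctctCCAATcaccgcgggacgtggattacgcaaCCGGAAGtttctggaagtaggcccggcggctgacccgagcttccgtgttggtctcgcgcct

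In Sf3b2 the CCAAT began 40 bases and the CCGGAAG 11 bases before the start, and in Snrpb2 the 2 copies of CCGGAAG on the other strand began 28 and 9 bases before it. In Snrpe the motif lay on both strands in 1 overlapping stretch just inside the gene. Snrpd2 held neither. The promoter table had an entry for 24 of the 31 members. CCGGAAG, the core bound by ETS-family factors, stood on either strand in 10 of these 24 windows of 300 bases (41.7%), against 9.12% of all 27025 promoters and 19.7% of the 8104 promoters of genes averaging 1 TPM or more. CCAAT, the NF-Y box, stood in 10 of 24 (41.7%), against 37.9% and 39.3%. CACGTG, the E-box bound by MYC and its relatives, stood in 1 of 24, Snrpa, against 7.24% and 10.6%. A match is a description of letters, and no factor's binding was measured.

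The question put to the RNA-seq libraries was whether the members' messengers differed between SHMT2 and vector cells. No member passed the adjusted threshold. Of 30 members averaging 1 TPM or more, 26 were on the higher side in SHMT2 and 12 reached an unadjusted p under 0.05, every one of the 12 higher. The median log2 fold change of the 30 was 0.27, against 0.02 over all 11117 genes tested. Fold changes are SHMT2 minus vector on log2(TPM + 1), a scale that understates the change of low values. limma with Benjamini-Hochberg adjustment called 0 of 11117 genes (0%) and 0 of 30 members, whose adjusted p ran from 0.204 to 0.961. At an unadjusted p under 0.05, 12 of 30 members (40.0%) were higher, against 11.3% of all genes, and 0 members were lower, against 5.4% of all genes. In 19 of 30 members all 3 SHMT2 libraries lay above all 3 vector libraries, against 16.9% of all genes, and in 0 all lay below, against 8.26%. A log2 fold change above 0 was found in 26 of 30 members, against 53.2% of all genes. With 3 libraries on each side the exact permutation test of a single gene cannot go below p = 0.1. The labels do not tell whether each library came from its own mouse, so the p-values speak for the spread among these libraries, which may be technical. The 12 members at the unadjusted threshold became 6 without SHMT2 replicate 3, where 5.61% of all genes were higher, and 7 without SHMT2 replicate 2, where 6.72% were.

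**Figure D1:**
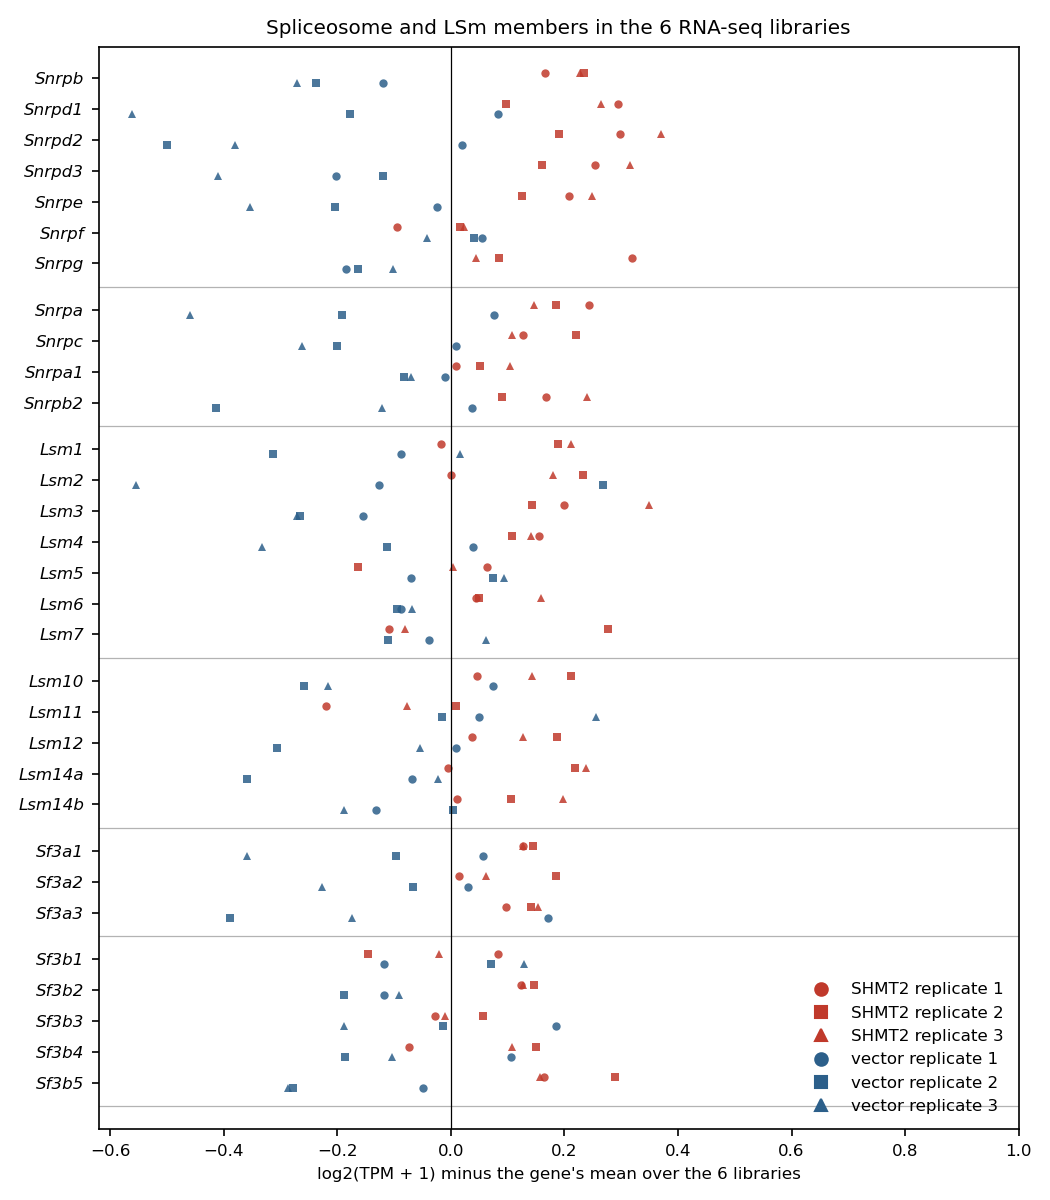
The plot by library shows, for each of the 31 members (rows, grouped by role from the Sm ring at the top to SF3b at the bottom), log2(TPM + 1) minus the gene's own mean over the 6 libraries. Red symbols are the 3 SHMT2 and blue symbols the 3 vector libraries; in 19 members the red symbols all lie to the right of the blue ones, and vector replicate 1 (blue circles) is the highest vector library in 19 of the 30 tested members.

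The Sm ring had the highest median of the 6 subfamilies, a log2 fold change of 0.42 (0.27 without vector replicates 2 and 3). Of its 7 genes, 6 were higher in SHMT2 without overlap, against 16.9% of all genes. At an unadjusted p under 0.05, 5 were higher, against 11.3% of all genes. Snrpb, which encodes the Sm proteins B and B′, was listed at 55.6, 58.4 and 58.0 TPM in SHMT2 and at 45.4, 41.8 and 40.8 TPM in vector cells. All SHMT2 libraries were above all vector libraries, and Snrpb had the smallest p of the members (log2 fold change 0.42, SE 0.08, limma adjusted p 0.204).

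Snrpd3, the partner of SmB in the ring, was at 45.3, 42.4 and 47.3 TPM in SHMT2 and at 32.7, 34.7 and 28.2 TPM in vector cells, without overlap (log2 fold change 0.49, SE 0.10). Snrpd2, the partner of Snrpd1, was at 20.4, 18.9 and 21.5 TPM in SHMT2 and at 16.7, 11.3 and 12.4 TPM in vector cells, with vector replicate 1 nearest to the SHMT2 libraries (log2 fold change 0.57, SE 0.15). Snrpd1 was at 28.9, 25.1 and 28.3 TPM in SHMT2 and at 24.8, 20.6 and 15.5 TPM in vector cells (log2 fold change 0.44, SE 0.17). The groups of Snrpd1 are separated by the narrow step between SHMT2 replicate 2 and vector replicate 1.

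Snrpe, one of the E, F and G trio that assembles together, was at 10.5, 9.87 and 10.8 TPM in SHMT2 and at 8.79, 7.64 and 6.80 TPM in vector cells, without overlap (log2 fold change 0.39, SE 0.12). Snrpg was also without overlap, at a mean of 3.87 ± 0.514 TPM in SHMT2 and 2.94 ± 0.117 TPM in vector cells (SD, n = 3 each). Snrpf did not follow its partners: 4.26 ± 0.238 TPM in SHMT2 and 4.39 ± 0.194 TPM in vector cells (SD, n = 3 each) overlapped, with a log2 fold change of −0.04 (SE 0.11), which became 0.04 with quantile normalization. The difference between Snrpf and the other ring genes was not tested.

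All 4 genes of U1 and U2 particle proteins had SHMT2 libraries above the vector libraries, against 16.9% of all genes. Their median log2 fold change was 0.32 (0.12 without vector replicates 2 and 3). At an unadjusted p under 0.05, 3 of the 4 were higher, against 11.3% of all genes. Snrpa, the U1 protein that binds a stem-loop of the U1 RNA, was at 13.6, 13.1 and 12.7 TPM in SHMT2 and at 12.03, 9.84 and 7.99 TPM in vector cells. Snrpc, a U1 protein at the contact with the intron start, was at 5.85, 6.30 and 5.75 TPM in SHMT2 and at 5.31, 4.46 and 4.23 TPM in vector cells. In both, vector replicate 1 came closest to the SHMT2 libraries, and the log2 fold changes were 0.38 (SE 0.15) for Snrpa and 0.30 (SE 0.12) for Snrpc.

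Snrpb2 and Snrpa1 encode the U2 pair B″ and A′, which bind the U2 RNA together. Snrpb2 was at 23.5, 22.2 and 24.7 TPM in SHMT2 and at 21.4, 15.4 and 19.0 TPM in vector cells (log2 fold change 0.33, SE 0.13). Snrpa1 showed a smaller separation, 16.4 ± 0.569 TPM in SHMT2 and 15.1 ± 0.439 TPM in vector cells (SD, n = 3 each; log2 fold change 0.11, SE 0.08).

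The genes of the LSm1 to LSm8 rings had a median log2 fold change of 0.26 over the 6 that were tested. Lsm3 had the second smallest p of all members, at 18.3, 17.5 and 20.4 TPM in SHMT2 and at 14.1, 12.9 and 12.9 TPM in vector cells (log2 fold change 0.46, SE 0.10, limma adjusted p 0.204). Its vector libraries lay close together and all below SHMT2. Lsm4, which carries an arginine-glycine tail like those of SmB, SmD1 and SmD3, was at 116, 112 and 115 TPM in SHMT2 and at 107, 96.0 and 82.3 TPM in vector cells (log2 fold change 0.27, SE 0.11). The groups of Lsm4 did not overlap, and the vector libraries spread more widely than the SHMT2 libraries.

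Lsm6 also had no overlap (log2 fold change 0.17, SE 0.10), and Lsm1, which makes the ring cytoplasmic, did overlap (0.26, SE 0.15). Lsm2 varied most among the vector libraries, at 4.86, 5.89 and 5.64 TPM in SHMT2 and at 4.37, 6.06 and 2.99 TPM in vector cells, so that its highest and lowest libraries were both vector libraries. Lsm5 had a log2 fold change of −0.07 (SE 0.13), which became 0.04 with quantile normalization. Lsm7, at 0.650 to 1.16 TPM in SHMT2 and 0.649 to 0.858 TPM in vector cells, was the only member under a mean of 1 TPM and was not tested. Lsm8 and Sf3b6 are not among the members, since the table holds no such symbols. Naa38 is given by RefSeq as another name of Lsm8 but also serves for a different gene, so what it measures is uncertain. That symbol was at 9.92, 14.5 and 14.0 TPM in SHMT2 and at 8.40, 9.44 and 10.55 TPM in vector cells, with overlap. The RefSeq table gives 0610009D07Rik as a former name of Sf3b6, and that symbol was at 26.9, 26.7 and 29.9 TPM in SHMT2 and at 22.2, 17.5 and 21.2 TPM in vector cells.

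Among the other LSm genes 3 of 5 were higher in SHMT2 without overlap, against 16.9% of all genes. At an unadjusted p under 0.05, 0 were higher, against 11.3% of all genes, and 0 lower, against 5.4%. Their median of 0.23 was 0.11 without vector replicates 2 and 3. Lsm14a, a protein of cytoplasmic messenger granules, was at 122.6, 143 and 145 TPM in SHMT2 and at 117, 95.7 and 121 TPM in vector cells (log2 fold change 0.30, SE 0.12), with SHMT2 replicate 1 just above the highest vector library. Its paralogue Lsm14b (0.21, SE 0.10) and Lsm12 (0.23, SE 0.13) also had no overlap. The pair of U7 proteins lay on opposite sides of 0, both with overlapping groups: Lsm10 had a log2 fold change of 0.27 (SE 0.14) and Lsm11 of −0.19 (SE 0.11), the lowest of the members.

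SF3a, which joins the U2 particle before it binds the branch point, had 1 of 3 genes higher without overlap, against 16.9% of all genes. Its median log2 fold change was 0.26. That median was 0.057 without vector replicates 2 and 3, 0.10 with the marker genes in the fit and 0.15 without vector replicate 3. Sf3a1 was at 131, 132 and 131 TPM in SHMT2 and at 124, 112 and 92.9 TPM in vector cells (log2 fold change 0.27, SE 0.12). Sf3a3 was at 18.2, 18.8 and 19.0 TPM in SHMT2 and at 19.2, 12.7 and 14.9 TPM in vector cells (0.26, SE 0.15), its highest library being vector replicate 1, and without vector replicates 2 and 3 its fold change was −0.042. Sf3a2 also overlapped (0.18, SE 0.10).

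SF3b, the complex that holds the branch point, had a median of 0.12, and its genes divided. The median was 0.050 with the marker genes in the fit, and 0.060 to 0.21 with 1 library left out. Sf3b2 was at 324, 329 and 324 TPM in SHMT2 and at 274, 260 and 279 TPM in vector cells, with the smallest standard error of the members (log2 fold change 0.26, SE 0.07, limma adjusted p 0.206). Sf3b5, a small SF3b subunit, was at 14.1, 15.4 and 14.0 TPM in SHMT2 and at 12.004, 10.1 and 10.0 TPM in vector cells (0.41, SE 0.11). Both were higher without overlap, as were 16.9% of all genes. Both reached an unadjusted p under 0.05, as did 11.3% of all genes on the higher side.

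Sf3b1, the subunit mutated in several blood cancers, was at 892, 761 and 830 TPM in SHMT2 and at 776, 884 and 921 TPM in vector cells. Its groups were interleaved (log2 fold change −0.05, SE 0.11), and no direction can be read from them. Sf3b3 (0.01, SE 0.11) and Sf3b4 (0.12, SE 0.13) overlapped as well. Whether SF3b differed from the Sm ring was not tested.

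**Figure D2:**
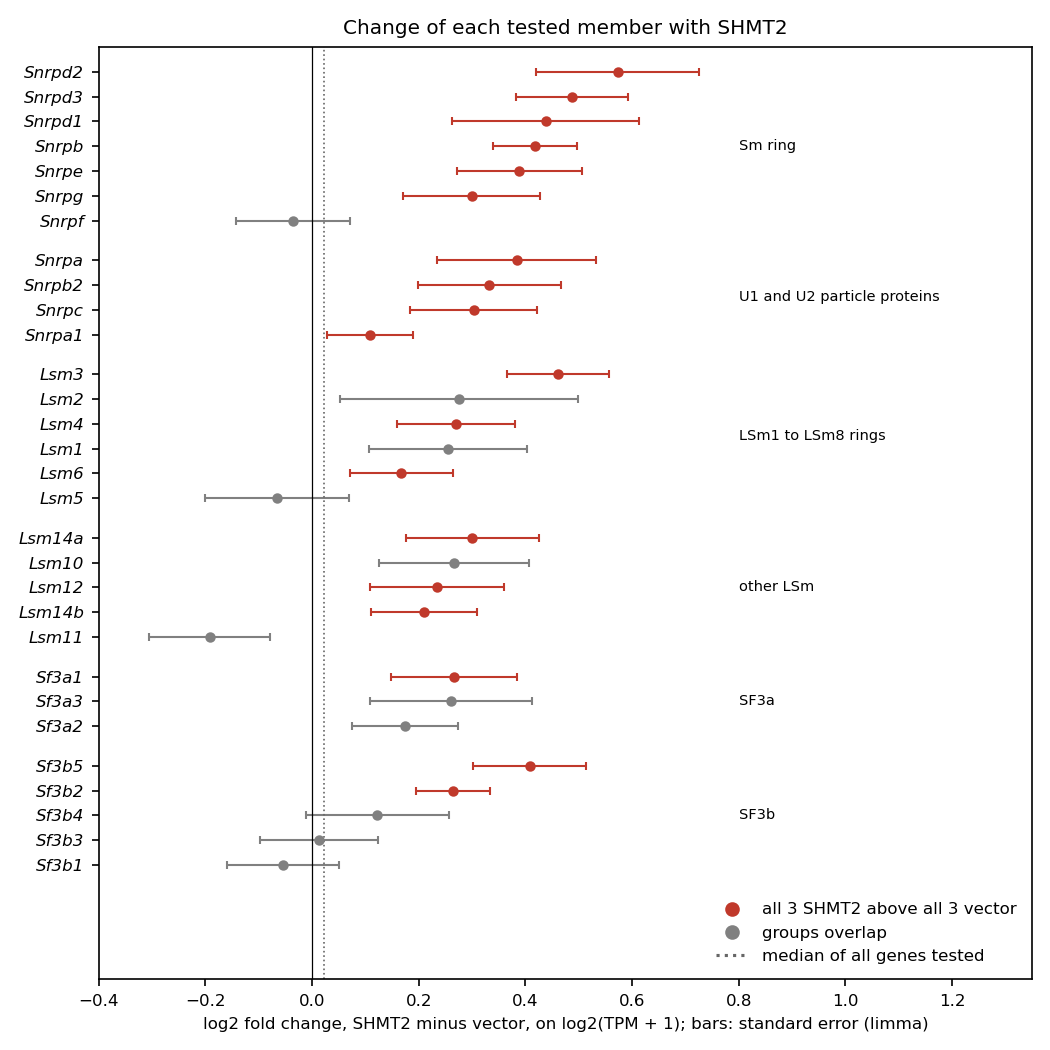
The plot of changes gives the log2 fold change, SHMT2 minus vector, of the 30 tested members with its limma standard error as a bar, sorted within each subfamily. Red points are members whose 3 SHMT2 libraries all lie above the 3 vector libraries, grey points overlap, and the dotted line is the median of all genes tested at 0.02; 26 points lie to the right of 0 and Lsm11 is the lowest at −0.19.

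The vector libraries were unlike one another, both in the members and in markers of other cell types. Any link between these differences was not tested. Over the members, the median deviation from the mean of the 6 libraries was 0.09, 0.14 and 0.14 log2 units in SHMT2 replicates 1, 2 and 3, and 0.00, −0.18 and −0.19 in vector replicates 1, 2 and 3. The lowest library was vector replicate 2 or 3 in 25 of 30 members, against 46.4% of all genes. The erythroid markers summed to 283, 164 and 298 TPM in SHMT2 and to 167, 5627 and 1164 TPM in vector replicates 1, 2 and 3. Of the 19 erythroid markers 17 were in the table, and 4 of them, Hba-a1, Hba-a2, Hbb-b1 and Hbb-b2, were listed at 0 in all 6 libraries. The myeloid markers, 18 of 20 in the table, summed to 546, 422 and 393 TPM in SHMT2 and to 282, 1304 and 1230 TPM in vector cells. The B-cell markers, 10 of 10, summed to 8902, 9022 and 8783 TPM in SHMT2 and to 9372, 6944 and 6837 TPM in vector cells. The proliferation markers, 20 of 20, summed to 1269, 1433 and 1383 TPM in SHMT2 and to 1273, 2080 and 782 TPM in vector cells. By mean log2(TPM + 1) the erythroid list was at 3.28, 2.38 and 3.40 in SHMT2 and at 2.49, 7.79 and 5.44 in vector cells, and the myeloid list at 4.199, 3.91 and 3.64 in SHMT2 and at 3.47, 5.49 and 5.49 in vector cells. The B-cell list was at 8.81 to 8.83 in SHMT2 and at 8.81, 8.42 and 8.52 in vector cells. The T and natural killer list, 12 of 12 in the table, was at 3.45, 2.62 and 2.81 in SHMT2 and at 2.60, 3.16 and 3.29 in vector cells, while its sum, mostly Cd2, was 458, 472 and 450 TPM in SHMT2 and 449, 304 and 390 TPM in vector cells.

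Taken as lists, vector replicates 2 and 3 are thus the libraries with high erythroid and myeloid markers, lower B-cell markers and the lowest member levels. Single genes differed. By log2 fold change, SHMT2 minus vector, all 13 tested erythroid genes were below 0. Of 17 tested myeloid genes 14 were below 0 and 3 above, Lyz1 among the 3. Of 10 B-cell genes 9 were above 0 and 1, Ebf1, below. In bulk samples, fewer cells of a type and less RNA per cell cannot be told apart. Set against vector replicate 1 alone, where the erythroid sum of 167 TPM lay within the SHMT2 range and the myeloid sum of 282 TPM below it, the members' median log2 fold change was 0.13, against 0.07 over all genes. At an unadjusted p under 0.05, 4 of 30 members were higher, against 11.8% of all genes, which is near that share. In that fit the lone library is assumed to vary like the others. Vector replicate 1 alone lay below all 3 SHMT2 libraries in 21 of 30 members, against 43.2% of all genes. For vector replicate 2 the count was 24 of 30 (42.0% of genes) and for vector replicate 3 it was 25 of 30 (38.7% of genes). With the mean log2 level of those erythroid and myeloid genes in the fit the members' median was 0.18, against 0.04 over all genes, and 6 of 30 were higher at an unadjusted p under 0.05, against 9.52% of all genes.

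Without vector replicate 1, limma called 845 of 11117 genes (7.6%) and 3 of 30 members (10%), which is near that share. The 3 were Snrpb, Snrpd2 and Sf3b5, all higher in SHMT2, with a smallest limma adjusted p of 0.0309. That comparison rests on the vector libraries with the high markers, and the part of the other cell types in it was not tested.

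**Figure D3:**
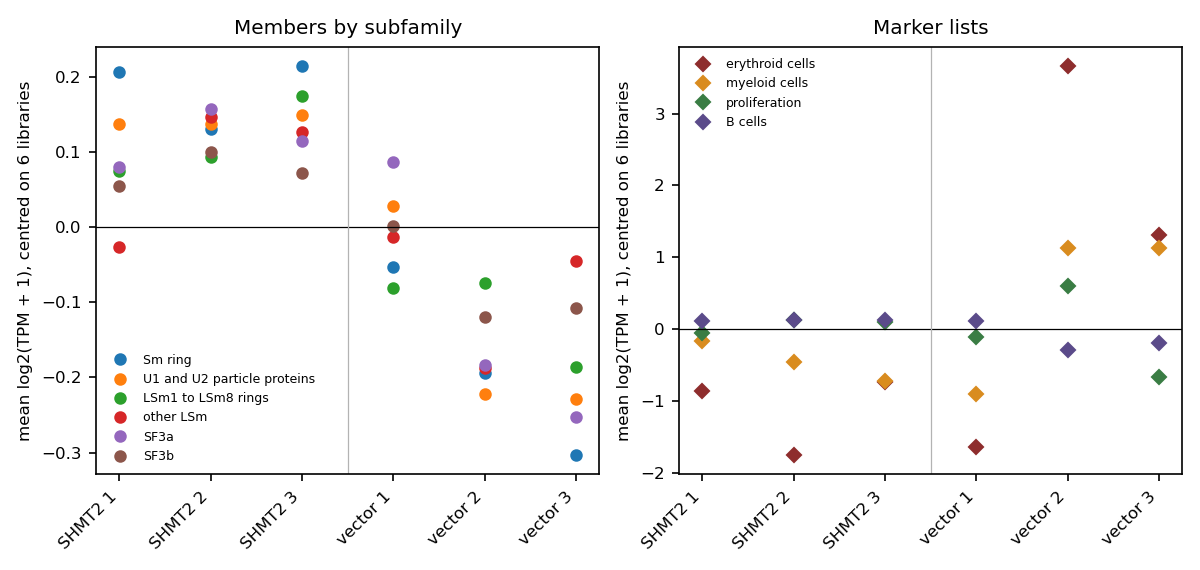
The left panel plots, for each RNA-seq library, the mean log2(TPM + 1) of each subfamily, and the right panel that of 4 marker lists, each centred on its mean over the 6 libraries. The SHMT2 libraries stand left of the vector libraries; vector 2 and 3 hold the highest erythroid and myeloid points (sums of 5627 and 1164 TPM for the erythroid list) and most subfamilies are lowest there.

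Genes that work with the members were read from 7 lists chosen by function. The spliceosome, minor spliceosome, SR, hnRNP, assembly, decapping and histone lists had 38, 8, 12, 22, 16, 10 and 9 genes tested. Together they had 26 genes higher and 2 lower at an unadjusted p under 0.05, and 0 at an adjusted one. Over all genes 11.3% were higher and 5.4% lower. The total fell to 10 higher without SHMT2 replicate 3, where 5.61% of all genes were higher. It was 13 without SHMT2 replicate 2 (6.72% of all genes) and 16 without SHMT2 replicate 1 (7.65%). The other proteins of the small nuclear particles and the spliceosome had 31 of 38 genes above 0, a median of 0.12 and 10 genes higher and 0 lower at the unadjusted threshold. Of these, Ctnnbl1, a partner of the PRP19 complex, was at 38.4 ± 0.709 TPM in SHMT2 and 29.4 ± 1.497 TPM in vector cells, and Snrnp27 at 21.0 ± 1.76 and 15.2 ± 1.79 TPM (SD, n = 3 each), both without overlap.

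The genes that build the particles, the SMN complex and its methyltransferase partners, had 6 of 16 genes higher and 0 lower at the unadjusted threshold, with a median of 0.19. Gemin6 was at 4.95 ± 0.186 TPM in SHMT2 and 3.13 ± 0.599 TPM in vector cells, and Prmt5, which methylates the arginine tails of Sm proteins, at 24.1 ± 2.12 and 17.9 ± 2.30 TPM (SD, n = 3 each). The minor spliceosome list had 2 of 8 genes higher, Zmat5 (log2 fold change 0.55, SE 0.15) and Snrnp25 (0.81, SE 0.23), and a median of 0.14.

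The SR proteins, which recruit the spliceosome to exons, had 3 of 12 higher and 1 lower, and a median of 0.04. The smallest p-values were those of Tra2a (0.29, SE 0.08) and Srsf7 (0.24, SE 0.09). The hnRNP proteins had 3 of 22 higher (13.6%) and 1 lower, with a median of 0.07. Their smallest p-values were those of Hnrnpc (0.50, SE 0.10) and Hnrnpf (0.35, SE 0.10). The decapping list, which shares the Lsm1 ring's pathway, had a median of −0.10 with 1 of 10 genes higher (10%). That gene was Dcps (0.59, SE 0.12), and Dcp1a was at −0.20 (SE 0.10). The list for replication-dependent histone messengers, the substrates of the U7 particle, had 1 of 9 higher (11.1%). That gene was Sympk (0.21, SE 0.08), and Npat was at −0.22 (SE 0.13). The hnRNP, decapping and histone lists thus lay near the 11.3% of all genes that were higher. The limma adjusted p of the 2 genes named per list ran from 0.204 to 0.411.

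H3K4me3 was present at the members' starts in both groups. This mark of active promoters lay within 1 kb of the start in all 5 libraries for 24 of 24 members with an entry in the promoter table, against 55.1% of 16457 genes with an entry and 91.1% of those with a mean of at least 1 TPM. For the 7 members without an entry (Lsm1, Lsm4, Lsm12, Sf3b4, Sf3b5, Snrpb and Snrpd1) the gene end with H3K4me3 was taken as the start, so its presence there is no result. Peak height is the authors' fold enrichment, ranked within each list. The members' median rank was the 92.4, 89.8 and 91.1 percentile in SHMT2 replicates 4, 5 and 6 and the 91.5 and 92.1 percentile in vector replicates 4 and 6, against 84.7 to 86.8 for genes of at least 1 TPM. The lowest rank in any library was the 58.2 percentile, of Lsm14b, and the highest the 99.8 percentile, reached by Sf3b3, Sf3b5 and Lsm3. The far end of the gene carried H3K4me3 in all 5 libraries in 1 of 24 members (4.17%), against 8.004% of genes of at least 1 TPM. That member was Sf3b2, where an end of the neighbouring gene Pacs1 lies within 1 kb.

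H3K4me1, a mark of enhancers and of promoter flanks, was found within 1 kb of the start in all 4 libraries in 21 of 24 members, against 72.4% of genes of at least 1 TPM. The exceptions were Snrpb2, without a peak in vector replicate 5, Lsm14a, without one in SHMT2 replicate 4, and Lsm6, with a peak in both SHMT2 and neither vector library. This pattern of Lsm6 was shared by 904 of 16457 genes, and the vector lists held fewer H3K4me1 peaks in all. The count of 21 members depended on the peak rule, being 9 of 24 (37.5%) with an overlap of at least 500 bases, against 32.4% of genes of at least 1 TPM, and 0 with peaks of a −log10 q of at least 10, against 0.026%. By these rules the members lay near the share of genes of at least 1 TPM. Snrpb, read at its marked end, lacked a peak in vector replicate 5.

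**Figure D4:**
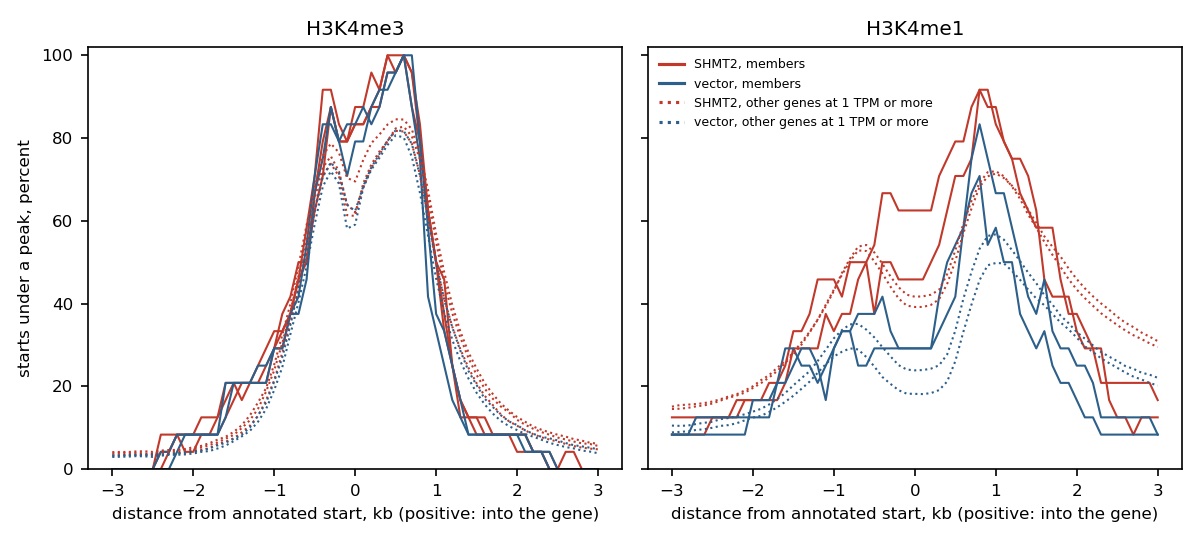
The profile shows the percent of starts under a peak against the distance from the annotated start in kb, for 24 members (solid) and other genes of at least 1 TPM (dotted), with 1 line per library, red for SHMT2 and blue for vector. At 0.6 kb into the gene H3K4me3 covers 100% of the members in all 5 libraries, against 80.1% to 84.5% of the other genes, and H3K4me1 at the start itself covers 45.8% and 62.5% of members in SHMT2 and 29.2% in both vector libraries, with a gap in the same direction in the other genes (41.65% and 39.18% in SHMT2, 23.86% and 18.18% in vector).

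Methylation near the starts was low in both groups. Calls were summed over the CpG cytosines within 1 kb of the start with a coverage of at least 10 in all 6 libraries, and 30 of 31 members had at least 3 such cytosines, Snrpc being the exception. The median level of the 30 starts was 0.323%, with a range of 0.0974% to 6.07%. Of them 25 (83.3%) lay under 1%, against 60.1% of all starts and 78.9% of those of genes of at least 1 TPM. The starts of the 7 members without a promoter-table entry had been chosen by H3K4me3. Those of other genes without an entry were chosen the same way. Levels at such starts are therefore not independent of that mark, and the shares were not counted without them. Far from the start the genes were methylated. Of 7 far ends with enough cytosines, those of Lsm10, Lsm3, Lsm7, Lsm11 and Lsm12 lay at 92.6% to 96.1%, and that of Sf3b2 at 0.12%. The far end of Sf3b5, a gene of 734 bases, shares its window with the start.

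The 3 highest starts were those of Lsm7, Snrpb and Lsm4, and their methylation sat at the outer edge of the window. Lsm7 was at 5.51%, 7.15% and 6.15% in SHMT2 and at 5.51%, 5.86% and 6.23% in vector cells. Of its 53 cytosines 8 were at 10% or more, all of them between −939 and −776 bases from the start (minus is upstream), and the median of the other 45 was 0%. Snrpb was at 4.04%, 5.05% and 4.28% in SHMT2 and at 4.88%, 5.91% and 5.58% in vector cells, from 6 of 67 cytosines at −873 to −804 bases. Lsm4 was at 4.42%, 4.42% and 4.79% in SHMT2 and at 4.12%, 3.63% and 4.28% in vector cells, from 2 of 28 cytosines, at −948 and −817 bases. The lowest number of calls behind a value was 4771 for Lsm7, 4983 for Snrpb and 1424 for Lsm4.

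No member start differed by the adjusted test, a binomial regression over all starts with a call at an adjusted p under 0.05 and 10 percentage points. It called 0 of 12575 starts (0%), with 455 starts (3.62%) at an unadjusted p under 0.05. No member start was above 7.15% in any library. A fall of 10 points was therefore out of reach for the members, and only a rise could have been called. Of the members 1 of 30 had an unadjusted p under 0.05, Lsm2, at 0.0268% in SHMT2 and 0.168% in vector cells (adjusted p 0.890). The differences of the 30 starts, 15 above and 15 below 0, ran from −1.001 to 0.55 percentage points. The largest were those of Snrpb at −1.001 points (two-sided exact permutation p 0.2), Lsm12 at 0.55 points (exact p 1.0) and Lsm4 at 0.53 points (exact p 0.1).

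The difference of Lsm12 rests on 1 library. SHMT2 replicate 1 was at 1.85%, and SHMT2 replicates 2 and 3 were at 0 of 851 and 0 of 521 calls, which allow levels of up to 0.353% and 0.576%. In vector cells replicates 1 and 2 were at 0 of 543 and 0 of 474 calls, which allow 0.552% and 0.633%, and replicate 3 was at 0.192%. These limits cover counting error only.

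**Figure D5:**
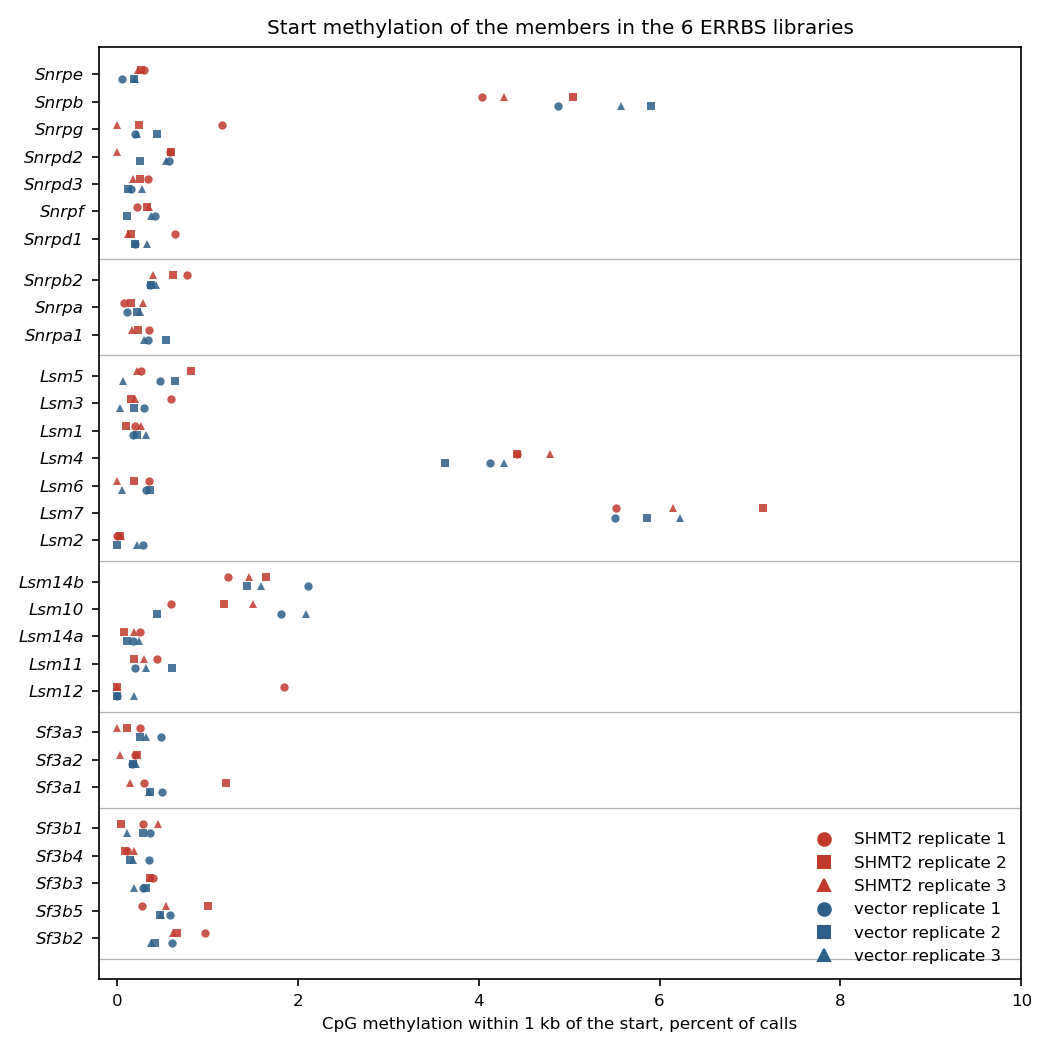
The plot gives, for the 30 members with covered starts, the percent of calls read as methylated within 1 kb of the start in each of the 3 SHMT2 (red) and 3 vector (blue) ERRBS libraries. All starts but those of Lsm7, Snrpb and Lsm4 stay at or below 2.12% in every library, and the groups of most members are mixed.

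Some members share their end with a neighbour, and there the mark or methylation cannot be given to 1 gene. Another gene's end lies within 1 kb of the start of Lsm3 (Xpc), Snrpd2 (Qpctl), Snrpd3 (Gucd1), Snrpa (BC024978), Sf3b4 (Mtmr11), Sf3b3 (Cog4), Sf3a1 (Ccdc157), Sf3a2 (Plekhj1), Lsm1 (Bag4), Lsm7 (Sppl2b) and Lsm11 (Thg1l). The library kit was a stranded one, but no source used here tells if reads were counted by strand, so the expression of such neighbours may not be fully apart.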

How the data were processed

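RNA-seq values are TPM made by the authors, 1 table per library. The submitters' processing notes name STAR, BWA, MACS2 and mm10 for the RNA-seq and ChIP-seq libraries without saying which step each served, and no source used here names the tool behind the TPM. The peak lists, 1 per library, hold for each peak a fold enrichment and a −log10 q-value as deposited by the authors; whether an input served as control is not stated. The ERRBS tables hold coverage, a count of calls, and percent of calls per cytosine per the file headers, from 10 calls upwards, with Bismark and Bowtie2 in the submitters' processing notes. The ERRBS labels describe PCR and direct sequencing, so the library steps are only partly known, and 2 SHMT2 libraries are called SHMT3 and SHMT4 in a label; their titles gave the group. Input libraries were not analysed here.

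The TPM did not scale with gene length. Among genes listed at 0 in at least 3 libraries, 79 miRNA genes (median span 85 bases) had a median smallest value of 0.0324 TPM and 1675 protein-coding genes (20033 bases) one of 0.0348 TPM. Genes averaging 1 TPM or more were tested with limma 3.58.1 in R 4.3.3 on log2(TPM + 1), with trend and no block. Starts came from RefSeq's promoter table (GRCm38.p6) or, for genes without an entry, were the gene end with H3K4me3. Start methylation was fitted by quasi-binomial regression with limma's variance squeezing. Values of all 6 libraries are given for the 12 members with the smallest p and, per subfamily, the members with the highest mean TPM and the largest spread, which only chose what is shown. The 2 genes with the smallest p are named per pathway list, and the 3 highest starts and 3 largest differences for methylation. Members and lists were chosen with earlier results of these data known.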

Additional observations from a re-analysis of the deposited data

How the results depend on the processing

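Under 14 alternatives, 394 of 413 single-member fold changes kept their direction and side of the adjusted threshold; the cause of the changes was not tested. The members' median log2 fold change stayed above 0 throughout. Same-numbered libraries did not deviate together (r of −0.42, −0.33 and −0.06 for RNA, −0.15, −0.37 and −0.11 for methylation). No library correlated best with its own number. These r are between deviations from means of 3 libraries, which depend on one another, so they cannot tell whether the numbers mark pairs. With the replicate block, 794 genes were higher and 386 lower at an unadjusted p under 0.05, with 11 higher and 0 lower in the pathway lists, and 0 member starts for methylation. Unknown RNA depth and 3 libraries a group limit the precision.

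With a common median, 7 of 30 members were higher at the unadjusted threshold, against 9.38% of all genes. The pathway lists had 4 genes lower without a filter and 1 lower at 5 TPM or more. Quantile normalization moved the SF3b median to 0.21. With the marker covariate 1 gene was called, 6 members and 14 pathway genes were higher at the unadjusted threshold, against 9.52% of all genes, and the medians were 0.18 for all members, 0.18 for U1 and U2, 0.18 for the LSm rings, 0.11 for other LSm, 0.10 for SF3a and 0.050 for SF3b. Without vector replicates 2 and 3, 6 genes were called, 4 of 30 members were higher at the unadjusted threshold, near the 11.8% of all genes, 4 members lay wholly lower, and 12 pathway genes were higher and 4 lower. For those 4 members, wholly lower means only that vector replicate 1 lay above all SHMT2 libraries. The share of all genes lying wholly lower was not counted in this setting, so the 4 cannot be judged against it. Without vector replicates 2 and 3 the medians were 0.13 for all members, 0.27 for the Sm ring and 0.12 for U1 and U2. They were 0.19 for the LSm rings, 0.11 for other LSm, 0.057 for SF3a and 0.090 for SF3b.

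Leaving out 1 library at a time gave 0 to 845 genes called (at most 7.6%) and 0 to 3 members called (at most 10%). Both were highest without vector replicate 1. At the unadjusted threshold 624 to 1758 genes were higher and 222 to 1586 lower, 6 to 15 members were higher (5.61% to 15.8% of all genes), and 10 to 25 pathway genes were higher and 0 to 5 lower. Members wholly lower numbered 0 to 1, and the share of all genes was not counted in these settings. With all 6 libraries the count was 0, against 8.26% of all genes. The medians ran from 0.22 to 0.32 for all members, 0.32 to 0.47 for the Sm ring, 0.24 to 0.41 for U1 and U2, 0.17 to 0.29 for the LSm rings, 0.20 to 0.30 for other LSm, 0.15 to 0.36 for SF3a and 0.060 to 0.21 for SF3b.

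In 6 members the fold change turned round. Quantile normalization gave 0.040 for Snrpf and 0.037 for Lsm5. The marker covariate gave 0.016 for Lsm5, 0.050 for Sf3b1, −0.10 for Sf3b3 and −0.014 for Sf3b4. Without vector replicates 2 and 3, Lsm5 was at 0.038, Sf3a3 at −0.042, Sf3b1 at 0.090, Sf3b3 at −0.18 and Sf3b4 at −0.045. With 1 library left out, Snrpf ran from −0.066 to 0.0024, Lsm5 from −0.12 to 0.00030, Sf3b1 from −0.13 to 0.0045 and Sf3b3 from −0.079 to 0.11.

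For methylation, a coverage of at least 20 gave 2 members at the unadjusted threshold and a median difference of 0.042 points, a window of 250 bases a median of −0.046, and starts between 5% and 95% left 1 member, Lsm7, at 0.40 points, with 0 members at the unadjusted threshold. Leaving out 1 library gave 0 to 1 members and medians of −0.050 to 0.070. The share of all starts at the unadjusted threshold was not counted in these settings or with the replicate block. In the main fit 3.62% of all starts and 1 of 30 members reached it, so these member counts show no excess that can be judged. H3K4me1 in all libraries was found at 0 of 24 members with a −log10 q of at least 10 (0.026% of genes of at least 1 TPM) and at 9 (37.5%) with an overlap of 500 bases (32.4% of those genes).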
